A study of Mus musculus with 6 samples.

Results

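The extracellular metalloproteases and their inhibitors were examined in freshly isolated MuSCs (muscle stem cells), which lie quiescent along the myofibres of adult muscle. The group consisted of the protein-coding genes with symbols beginning with Adam, Adamts or Mmp plus a number or the suffix l, together with Timp1 to Timp4. Of 57 matching rows in a table of 22081 genes, 54 had a mean of at least 5 normalized counts over the 6 libraries. They comprised 17 ADAM, 15 ADAMTS, 5 ADAMTSL, 13 MMP and 4 TIMP genes. The rule for members used names and mean level, and the group was taken up with earlier results of these data known.

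RNA-seq was performed on total RNA of MuSCs from adult mice on a C57BL/6 background, with 3 control libraries and 3 libraries labelled Taf4asKO. Taf4asKO animals carried floxed Taf4a alleles and a Cre recombinase driven by Pax7 that is switched on by tamoxifen, so recombination was aimed at Pax7-expressing cells. According to the study's methods the controls were littermates that also carried Taf4a flox/flox, with or without the Cre allele, although the sample names call them WT. The study describes mice of both sexes and cells taken some weeks after tamoxifen, but not whether these controls received it, nor the sex or number of animals behind each library. Cells had been sorted as negative for SCA1, CD45 and CD31 and positive for integrin alpha 7 or a Pax7-zsGreen reporter, and 10 ng of RNA entered each library.

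Total normalized counts lay between 12338676 and 14551732 per library, and Pearson correlations of log2 values across genes within groups were 0.9611 to 0.9843. Taf4 (the gene formerly called Taf4a) stood at 613, 534 and 478 normalized counts in control replicates 1 to 3 and at 631, 565 and 574 in replicates 1 to 3 labelled Taf4asKO. The labelled deletion removes part of the gene, and the summed count did not show it (log2 fold change 0.13, SE 0.12, adjusted p = 0.524). The study itself reports efficient deletion of the floxed exons in MuSCs, with almost no Taf4a transcript by RT-qPCR or protein by western blot. The gene-level counts used here did not show that, so groups are named by their labels. The 8 MuSC markers summed to 35925 to 37449 in control and 36906 to 39879 in the labelled libraries. Sdc4 alone stood at 5564 to 5814 in control and 9266 to 12662 in the labelled libraries, so the sum hides falls elsewhere. Of the 8, 5 had a log2 fold change below 0 and 3 above. Pax7 lay at 12082 to 13007 in control and 10363 to 11164 in the labelled libraries, without overlap (-0.21). By the threshold given below, Myf5, Itga7 and Cdh15 were lower and Vcam1 and Sdc4 higher, beside 12.6% of all tested genes called. Pax7, Calcr (0.07) and Chrdl2 (-0.24) did not pass. Of 5 haematopoietic markers, Ptprc, Adgre1 and Itgam had no row among those analysed here, and Cd68 and Csf1r summed to 131 to 328 in control and 195 to 201 in the labelled libraries. The same held for the 5 neutrophil markers, with 0 rows.

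Matrix metalloproteases (MMPs) are zinc proteases that are secreted or anchored in the membrane and cleave collagens and other matrix proteins. ADAMs are membrane proteins, some of which shed the extracellular part of receptors and ligands, including Notch receptors that hold MuSCs in quiescence. ADAMTS proteases are secreted and cleave proteoglycans, procollagens and other matrix proteins. ADAMTS-like proteins (ADAMTSL) have the same matrix-binding domains but no protease domain. Tissue inhibitors of metalloproteases (TIMPs) bind and block these enzymes, and the balance of both sets the state of the matrix around the stem cell.

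Which of these genes differed between groups was asked with limma on log2(value + 1), and a gene passed the threshold with an adjusted p under 0.05 over all 18562 tested genes and a fold of at least 1.3. Among the 54 genes, 13 passed (24.1%), beside 12.6% of all tested genes and 15.1% of protein-coding genes. Without labelled replicate 2 or without labelled replicate 3, 7 passed. Adamtsl1, Adamts20, Adamts12, Adamts8, Adamts7 and Adamts14 were lower in the Taf4asKO-labelled libraries, which is 6 genes beside a background of 6.71% called lower. Timp3, Timp2, Mmp16, Mmp19, Adam23, Adam17 and Adamts4 were higher, which is 7 genes beside 5.93% called higher. In this fit the genes that fell were ADAMTS and ADAMTSL genes, and those that rose were spread over inhibitors, membrane and secreted MMPs, ADAMs and 1 ADAMTS gene. The difference between subfamilies was not tested. The median log2 fold change of the 54 genes was -0.00193, beside 0.00403 over all tested genes. By subfamily it was -0.08 for ADAM, -0.17 for ADAMTS, 0.33 for ADAMTSL, -0.02 for MMP and 0.75 for TIMP genes.

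Libraries with the same replicate number deviated together weakly (correlations of 0.235, 0.126 and 0.15 over genes). The sample titles do not say what such libraries share, and the block was chosen from these same data. A model that included this number as a block called 21 of the 54 genes (38.9%). Beside this stand 18.1% of all tested genes and 2985 of 13969 protein-coding tested genes. This fit kept the 13 genes and added Adam11, Adam22, Adamts1, Adamts9, Adamtsl4 and Mmp15 as higher and Adam12 and Adamts2 as lower. Values of the groups did not overlap for 22 of the 54 genes (40.7%), beside 33.0% of all tested genes. Among protein-coding tested genes, the nearer background, it was 5200 of 13969. In bulk RNA, fewer cells of a type and less RNA per cell cannot be told apart.

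**Figure D1:**
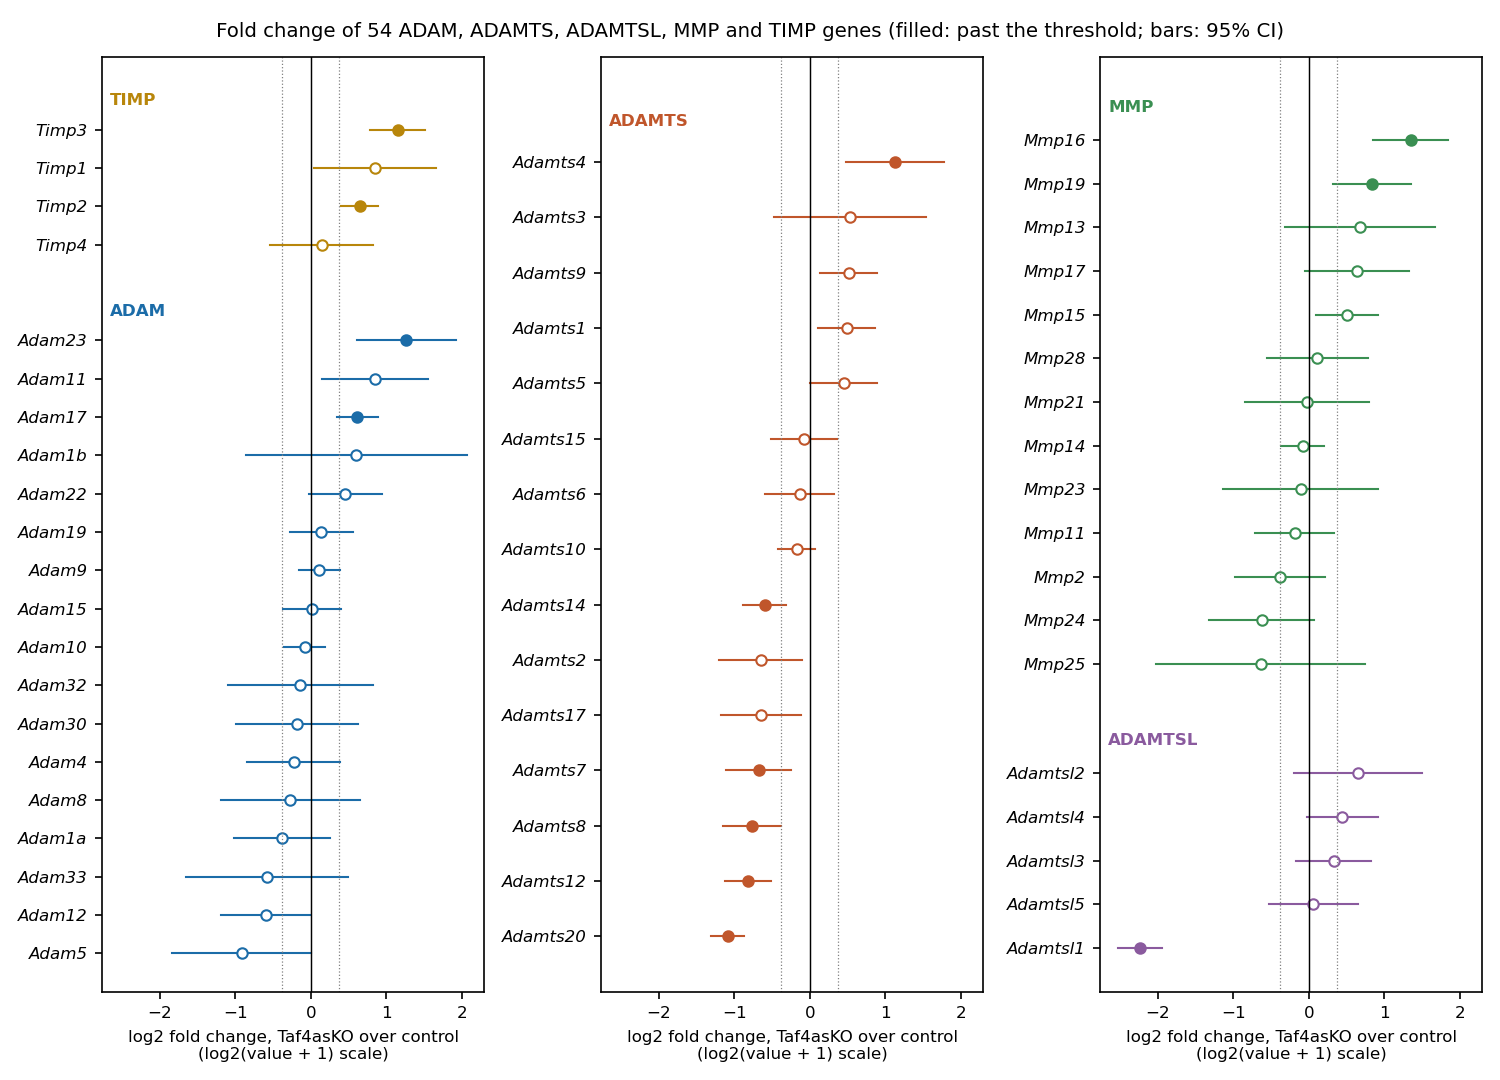
Log2 fold change (Taf4asKO over control, log2(value + 1) scale) of the 54 genes by subfamily, with bars for the 95% confidence interval, filled points for the 13 genes past the threshold and dotted lines at a fold of 1.3. The 6 filled points left of 0 are ADAMTS and ADAMTSL genes, and all 4 TIMP genes lie right of 0, 2 of them filled.

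Levels were compared between genes only as normalized counts per kb of exon. On this scale Timp2 was the most abundant member (1230 in control and 1920 in the Taf4asKO-labelled libraries), followed in control by Mmp2 (1150 and 822) and Adamts1 (939 and 1300). Adam10 led the ADAMs (269 and 253), Adamtsl4 led the ADAMTSL genes (233 and 307), and Mmp14 was second among the MMPs (242 and 227). Of the 54 genes, 13 had a mean of at least 1000 normalized counts and 4 of those passed the threshold, namely Adamts4, Adamts20, Timp2 and Timp3. Another 23 genes had a mean under 100, and 1 of those passed, Mmp16. Counts in this paragraph stand beside 12.6% of all tested genes at any level, or 18.1% with the block. Shares of all genes at like levels were not computed. The low group included the 6 ADAM genes known mainly from testis, of which 0 passed by limma, with or without the block, and 0 had an unadjusted p under 0.05. At the limit of inclusion, Adam32 (mean 5.33) and Adam1b (5.83) lay just inside, and Adam21 (4.5) and Mmp9 (2.67) just outside. Mmp9, a gelatinase made by activated MuSCs and by leukocytes, was listed at 1, 0 and 1 in control and at 0, 14 and 0 in the Taf4asKO-labelled libraries.

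**Figure D2:**
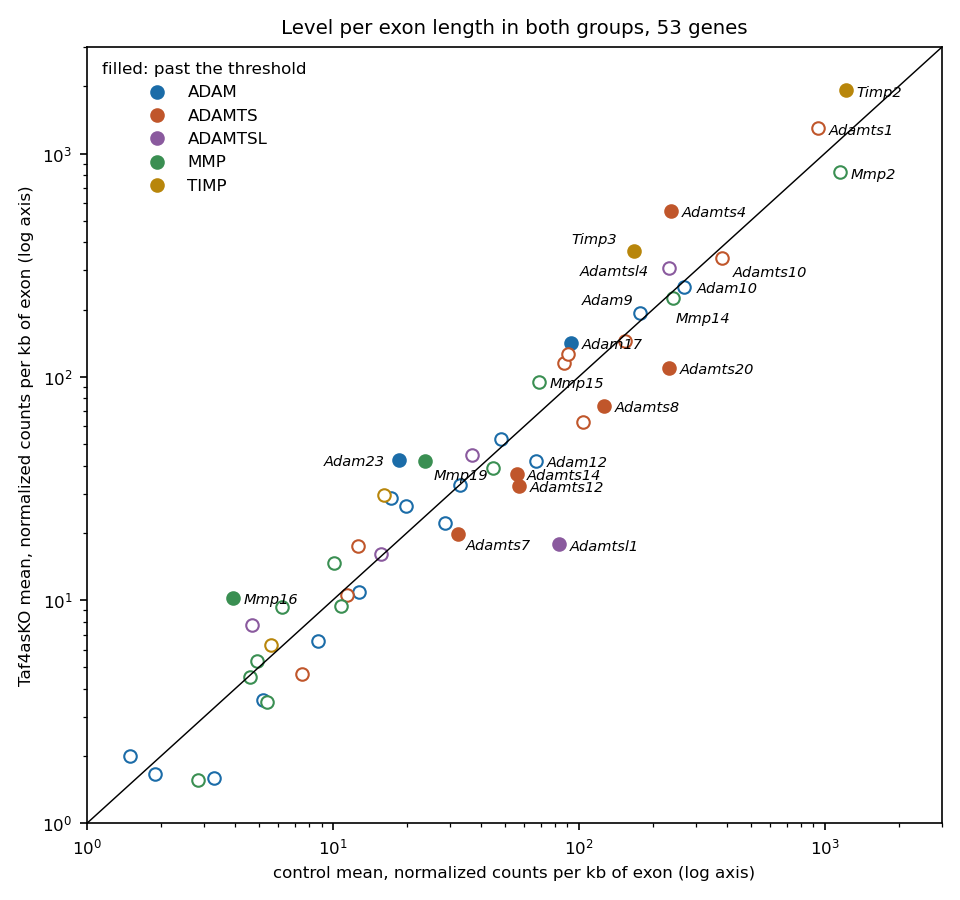
Mean level in control (horizontal) and Taf4asKO (vertical) in normalized counts per kb of exon, both on log axes, for 53 genes, with the line of equal levels and filled points for genes past the threshold. Timp2 lies at 1230 and 1920, Adamtsl1 at 83.3 and 17.8, far below the line, and Mmp2 at 1150 and 822 among the open points. Adam1a is left out because its annotated exon length (7508 bases) is far above its span in the table (3496), and Adam30, with 3531 against 3510, is kept.

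Among the inhibitors, Timp3, a TIMP that binds to the matrix and inhibits ADAM17 and aggrecan-cleaving ADAMTS enzymes as well as MMPs, rose most. Its values were 1005, 1521 and 1582 normalized counts in control replicates 1 to 3 and 2667, 3172 and 3139 in those labelled Taf4asKO. Every labelled library lay well above every control, and control replicate 1 was lowest. The log2 fold change was 1.15 (SE 0.16, adjusted p = 0.00215), and it stayed past the threshold in all 15 alternatives. Timp3 (chr10:86300372-86349506, plus strand, mm10) shares 1733 bases of exon, 21.3% of its own, with Syn3 on the opposite strand, whose row held 8 to 25 normalized counts. The sources do not say whether reads were counted by strand.

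Timp2, which both inhibits MMPs and takes part in activation of pro-MMP2 at the cell surface, stood at 4156, 5013 and 5164 normalized counts in the controls and at 6927, 7718 and 7776 in the Taf4asKO-labelled libraries. The groups were separated by more than the spread within either (log2 fold change 0.65, SE 0.11, adjusted p = 0.0047). Timp1 was far less abundant, at 13, 10 and 20 in control and 21, 35 and 23 in the labelled libraries. The groups did not overlap, but the difference missed the threshold (0.85, SE 0.36, adjusted p = 0.156). Timp4 differed by less than its spread (0.14, SE 0.30, adjusted p = 0.799). Summed per kb of exon, the 4 TIMP genes came to 1210, 1490 and 1550 in control and to 2130, 2420 and 2420 in the Taf4asKO-labelled libraries, most of it from Timp2.

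Promoter sequences are shown for both inhibitors that rose and for a pair of ADAMTS genes that fell, chosen after the search for short boxes described here. All 4 hold GGGCGG, Timp2 and Adamts20 also hold CCAAT, and 2 called genes that are not shown, Adamts12 (lower) and Adam23 (higher), hold neither. The sequences are the 250 bases before the RefSeq transcript start (GRCm38.p6, the mm10 assembly), 5′ to 3′ on the gene's strand, with capitals marking CCAAT, the box bound by NF-Y, and GGGCGG, a GC box of Sp factors, on either strand (ATTGG and CCGCCC where the match is on the other strand).
Timp2 (chr11:118355412-118355661, minus strand): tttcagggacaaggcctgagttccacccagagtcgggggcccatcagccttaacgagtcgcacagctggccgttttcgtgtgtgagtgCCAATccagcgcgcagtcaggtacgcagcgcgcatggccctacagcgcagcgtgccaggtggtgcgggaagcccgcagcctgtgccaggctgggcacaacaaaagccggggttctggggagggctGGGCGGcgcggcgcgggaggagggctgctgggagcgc
Timp3 (chr10:86300162-86300411, plus strand): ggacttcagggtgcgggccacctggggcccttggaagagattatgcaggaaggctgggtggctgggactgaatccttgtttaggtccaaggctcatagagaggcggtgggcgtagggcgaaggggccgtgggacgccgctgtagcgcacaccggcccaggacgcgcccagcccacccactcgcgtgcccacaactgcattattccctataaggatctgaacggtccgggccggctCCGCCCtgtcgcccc
Adamts20 (chr15:94404351-94404600, minus strand): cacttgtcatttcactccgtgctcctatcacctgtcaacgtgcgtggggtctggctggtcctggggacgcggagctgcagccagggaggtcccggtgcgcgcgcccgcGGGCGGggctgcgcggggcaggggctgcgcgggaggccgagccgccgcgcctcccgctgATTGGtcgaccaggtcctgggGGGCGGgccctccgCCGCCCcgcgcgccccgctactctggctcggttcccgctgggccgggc
Adamts14 (chr10:61273420-61273669, minus strand): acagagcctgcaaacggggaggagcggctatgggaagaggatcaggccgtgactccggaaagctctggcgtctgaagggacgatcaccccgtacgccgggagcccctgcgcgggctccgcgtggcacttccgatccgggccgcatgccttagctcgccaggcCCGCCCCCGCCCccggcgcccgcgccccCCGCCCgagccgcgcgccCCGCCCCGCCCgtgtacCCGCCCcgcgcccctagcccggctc

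Promoters were found for 34 of the 54 genes, including 7 of the 13 past the threshold. CCAAT, searched on both strands, occurred in 9 of the 34 (26.5%), beside 36.1% of 10765 promoters of protein-coding tested genes. GGGCGG occurred in 23 (67.6%), beside 59.2%, and TATAAA in 4 (11.8%), beside 6.4%. Of the 3 genes that fell and have a sequence, Adamts20 held CCAAT, and of the 4 that rose, Timp2 held it. TATAAA was found in 0 of these 7 windows. These matches are letters in a window rather than shown sites, and with 7 sequences no comparison of the directions was made.

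Among the ADAMTS genes 6 of 15 passed (40.0%, beside 12.6% of all tested genes), 5 lower and 1 higher, and they are ordered here by substrate. With the block 9 passed, 6 lower and 3 higher, beside 18.1% of all tested genes. Without labelled replicate 2 the count was 2 and without labelled replicate 3 it was 3. The role groups were formed after values were seen, so a like direction within a group is no test of a substrate pattern. Adamts7 and Adamts12, both known to cleave cartilage oligomeric matrix protein (COMP), were both lower. Adamts12 (chr15:11064790-11346867, plus strand) stood at 585, 582 and 709 normalized counts in the controls and 300, 390 and 378 in the Taf4asKO-labelled libraries. No labelled library reached the lowest control (log2 fold change -0.81, SE 0.14, adjusted p = 0.00484). Adamts7 stood at 205, 248 and 155 in control and 107, 133 and 134 in the labelled libraries, again without overlap (-0.68, SE 0.19, adjusted p = 0.0465). This call lay close to the limit and was lost without control replicate 1 or 2 or any 1 labelled library (adjusted p 0.0773 to 0.15). Their summed level per kb was 86.2 to 92.8 in control and 44.5 to 56.9 in the Taf4asKO-labelled libraries.

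Of the 7 proteoglycan-cleaving ADAMTS genes 3 passed, 2 lower and 1 higher, beside 12.6% of all tested genes. Adamts20, a versican-cleaving protease known for the belt of white fur in mutant mice, showed the largest fall among the ADAMTS genes. It stood at 2232, 2152 and 1920 normalized counts in the controls and at 949, 1044 and 974 in the Taf4asKO-labelled libraries. The labelled values were tight and each was below the lowest control by more than the range of either group. The log2 fold change was -1.08 (SE 0.10, adjusted p = 0.000187), past the threshold in all 15 alternatives. Adamts20 lies at chr15:94270163-94404258 on the minus strand. Adamts8, another protease that cleaves aggrecan, stood at 669, 646 and 444 in control and 378, 360 and 288 in the labelled libraries (-0.76, SE 0.17, adjusted p = 0.0188). The groups did not overlap, and the call was lost without control replicate 1 (adjusted p = 0.055) and without labelled replicate 2 (0.0642) or 3 (0.0883).

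Adamts4, known as aggrecanase-1, was the ADAMTS gene that rose. Its values were 1369, 876 and 1183 normalized counts in the controls and 4241, 1996 and 1752 in the Taf4asKO-labelled libraries. Labelled replicate 1 was far above the other 2, which still exceeded all controls. The log2 fold change was 1.13 (SE 0.29, adjusted p = 0.0306). Without labelled replicate 1 the log2 fold change was 0.73 and the call held (adjusted p = 0.0464). The call was lost without control replicate 2 (0.0772), control replicate 3 (0.0604) or labelled replicate 2 (0.0618) and with total-count scaling (0.0509) or robust variance shrinkage (0.115).

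Adamts1, the most abundant ADAMTS gene, stood at 5852, 3611 and 5474 normalized counts in the controls and at 7756, 6476 and 6376 in the Taf4asKO-labelled libraries. The groups did not overlap, yet the difference missed the threshold without the replicate block (log2 fold change 0.49, SE 0.17, adjusted p = 0.0886). It passed with the block (0.0131) or without control replicate 1 (0.0493). Without control replicate 2 the log2 fold change fell to 0.27 (adjusted p = 0.106). Adamts9, a versican-cleaving protease, stood at 1264, 1052 and 1763 in control and 1830, 2123 and 1756 in the labelled libraries, with control replicate 3 just inside the labelled range (0.51, SE 0.17, adjusted p = 0.0752). It passed with the block (0.0371) or without control replicate 3 (0.00946). Adamts5, known as aggrecanase-2, stood at 1116, 624 and 1084 in control and at 1137, 1255 and 1341 in the labelled libraries (0.45, SE 0.20, adjusted p = 0.168). Control replicate 2 was the lowest library for Adamts1, Adamts4, Adamts5 and Adamts9. Adamts15 showed no difference beyond its spread (-0.08, 95% interval -0.52 to 0.36). With the block 5 of the 7 proteoglycanase genes passed, 2 lower and 3 higher, beside 18.1% of all tested genes. The summed level of the 7 per kb was 1560 to 2080 in control and 2150 to 2880 in the Taf4asKO-labelled libraries, with Adamts1 as its largest part.

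Some of these genes are neighbours on the chromosome. Adamts15 (chr9:30899155-30922452, minus strand) and Adamts8 (chr9:30942562-30962856, plus strand) lie head to head with a gap of 20.1 kb, with log2 fold changes of -0.08 and -0.76. Adamts1 (chr16:85793827-85803113) and Adamts5 (chr16:85858170-85901125), both on the minus strand and 55.1 kb apart, had values of 0.49 and 0.45. The difference between neighbours was not tested. Exons on the opposite strand overlap 10.6% of the exon bases of Adamts8 (Gm29724) and 1.94% of those of Adamts7 (Tbc1d2b).

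The procollagen N-propeptidases trim the amino-terminal propeptides of fibrillar procollagens. Adamts14 stood at 311, 270 and 290 normalized counts in the controls and 182, 205 and 187 in the Taf4asKO-labelled libraries. All labelled values were below all control values (log2 fold change -0.60, SE 0.13, adjusted p = 0.0148). The call was lost when any 1 labelled library was left out (adjusted p 0.0593, 0.0514 and 0.0743 without replicates 1 to 3). Adamts2 stood at 578, 1360 and 986 in control and 545, 615 and 600 in the labelled libraries, with control replicate 1 inside the labelled range. It passed with the block (adjusted p = 0.0177) and without control replicate 1 (0.00414), but not otherwise (-0.65, SE 0.25, adjusted p = 0.114). Adamts3, expressed at 35 to 134 counts, did not pass (0.53, SE 0.45, adjusted p = 0.477).

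None of the 3 fibrillin-associated proteases of the subfamily passed by limma, with or without the block, and 1 of them, Adamts17, had an unadjusted p under 0.05. Adamts10, the third ADAMTS gene by level per kb, stood at 3466, 2863 and 3161 normalized counts in the controls and 3118, 2661 and 2634 in the Taf4asKO-labelled libraries. The ranges overlapped, and the 95% interval of the log2 fold change ran from -0.41 to 0.07. Adamts17 stood at 47, 71 and 57 in control and at 36, 36 and 37 in the labelled libraries (-0.65, SE 0.24, adjusted p = 0.104), without overlap, and Adamts6 gave -0.14.

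**Figure D3:**
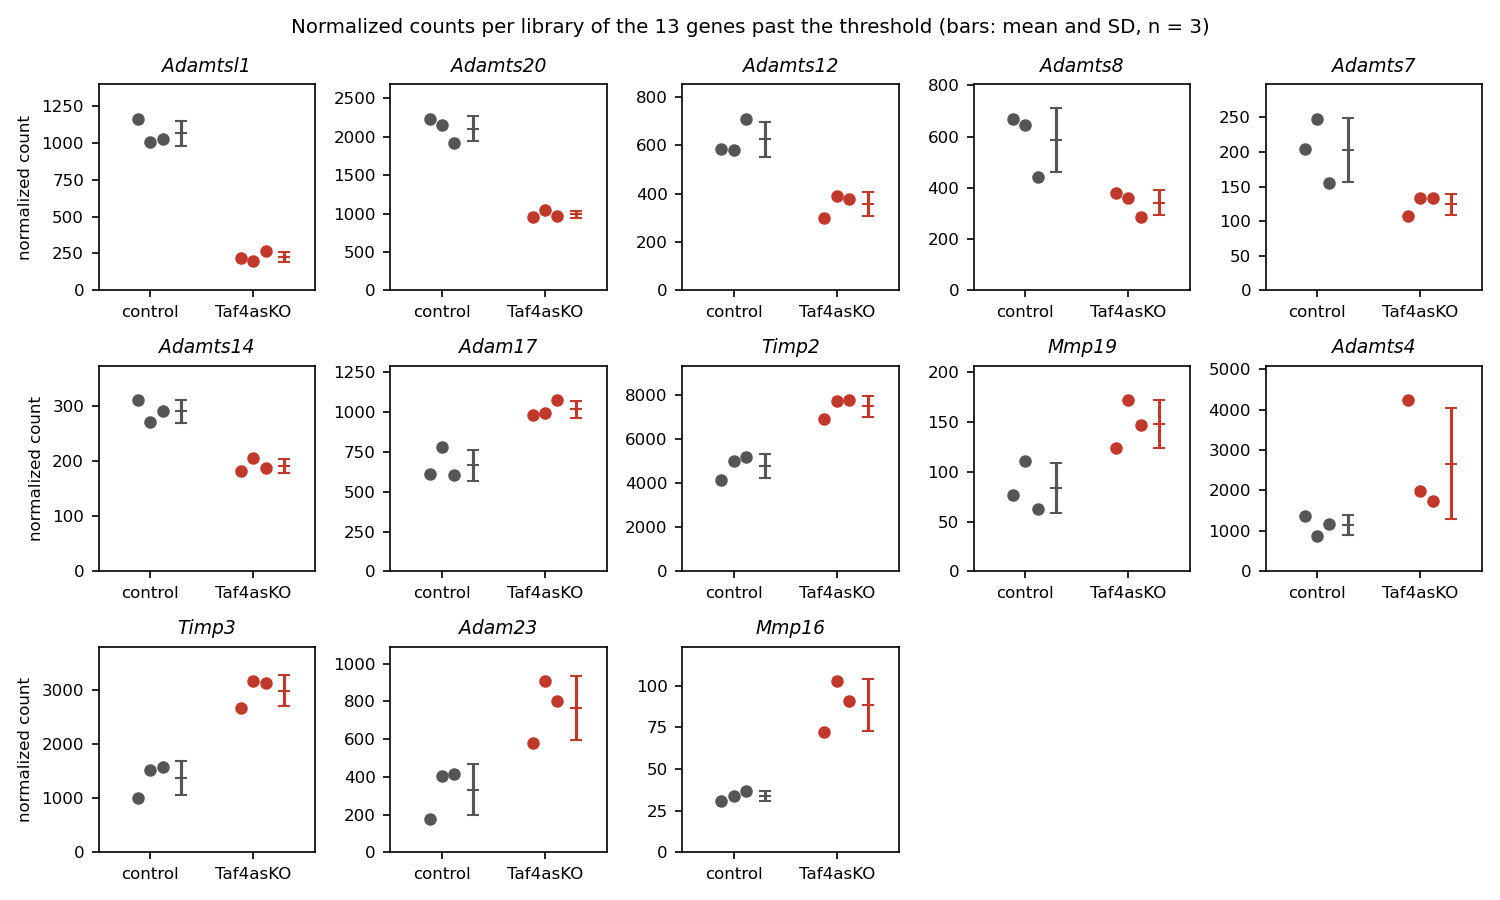
Normalized counts in each library (points) of the 13 genes past the threshold, control in grey and Taf4asKO in red, with bars for the mean and SD of 3 libraries and each vertical axis starting at 0. In all 13 panels the groups do not overlap, and for Adamts4 labelled replicate 1 stands at 4241 against 1996 and 1752.

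Adamtsl1, which encodes the secreted glycoprotein punctin without protease activity, showed the largest change of all 54 genes. Its values were 1161, 1006 and 1024 normalized counts in the controls and 217, 198 and 265 in the Taf4asKO-labelled libraries. The labelled mean was 0.213 of the control mean, and the highest labelled library was far below the lowest control. The log2 fold change was -2.23 (SE 0.13, 95% interval -2.53 to -1.94, adjusted p = 3.2e-05), past the threshold in all 15 alternatives. Adamtsl1 lies at chr4:86053915-86428385 on the plus strand, and no promoter of it is shown.

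The other 4 ADAMTSL genes had values above 0 and did not pass. Adamtsl4, which binds fibrillin microfibrils and is known for its role in the suspension of the lens, stood at 1080, 639 and 1218 normalized counts in the controls and 1490, 1138 and 1244 in the Taf4asKO-labelled libraries. The ranges overlapped (log2 fold change 0.44, SE 0.21, adjusted p = 0.201), and the difference passed only with the block (0.0401). Adamtsl3 stood at 226, 217 and 414 in control and 311, 360 and 362 in the labelled libraries, and passed without control replicate 3 (adjusted p = 0.0218) but not with it (0.362).

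Among the ADAMs with an active protease, Adam17 rose and Adam10 did not pass. Adam17 encodes TACE, the sheddase of tumour necrosis factor and of several EGF receptor ligands. It stood at 611, 778 and 606 normalized counts in the controls and at 980, 992 and 1075 in the Taf4asKO-labelled libraries. The lowest labelled library lay above the highest control (log2 fold change 0.62, SE 0.12, adjusted p = 0.0093), and the call was lost without labelled replicate 3 (0.0563). Adam17 shares 311 bases of exon with Iah1 on the opposite strand (4.35% of its exon bases), and Iah1 was also higher (0.64, adjusted p = 0.0487). Adam10, the main sheddase of Notch receptors, stood at 1260, 1554 and 1152 in control and 1274, 1265 and 1183 in the labelled libraries. The ranges overlapped, and the 95% interval of the log2 fold change ran from -0.35 to 0.19. Whether Adam17 and Adam10 differed from each other in response was not tested.

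Adam9, second among the ADAMs by level per kb, did not pass (0.12, 95% interval -0.15 to 0.38). Adam12, a protease known from regenerating and fibrotic muscle, stood at 516, 1092 and 523 normalized counts in the controls and at 370, 542 and 423 in the Taf4asKO-labelled libraries. Control replicate 2 stood far above the other controls, and the labelled range reached above both of those. The log2 fold change was -0.60 (SE 0.27, adjusted p = 0.169), and it passed only with the block (0.0109).

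Adam11, Adam22 and Adam23 lack protease activity and are known as neuronal adhesion proteins that bind LGI ligands. Adam23 (chr1:63445895-63596276, plus strand) stood at 179, 407 and 413 normalized counts in the controls and 577, 909 and 803 in the Taf4asKO-labelled libraries. The groups did not overlap (log2 fold change 1.27, SE 0.30, adjusted p = 0.0209), and the call was lost without labelled replicate 2 (0.0987) or 3 (0.081) and with robust variance shrinkage (0.0699). Without control replicate 1 the change was 0.87 (adjusted p = 0.0158). Adam11 stood at 50, 143 and 100 in control and at 161, 161 and 164 in the labelled libraries. Here too the groups were apart, but the threshold was passed only with the block (0.0336) or without control replicate 2 (0.0206), while the fit without a block gave 0.85 (SE 0.31, adjusted p = 0.107). Adam22 stood at 207, 252 and 395 in control and 322, 407 and 408 in the labelled libraries, with overlap (0.46, SE 0.22, adjusted p = 0.196), and passed with the block (0.0482) or without control replicate 3 (0.0243).

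Sox10, the glial lineage factor and a marker of Schwann cells, is given beside these 3 genes. It stood at 185, 534 and 420 normalized counts in the controls and at 734, 1016 and 900 in the Taf4asKO-labelled libraries. It was higher (log2 fold change 1.34, adjusted p = 0.0227), while Ngfr, a neurotrophin receptor and another Schwann marker, was lower (-0.92, adjusted p = 0.00871). Control replicate 1 was the lowest library for Adam11, Adam22, Adam23 and Sox10 alike. The part of glial RNA in the Adam11, Adam22 and Adam23 values was not tested.

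**Figure D4:**
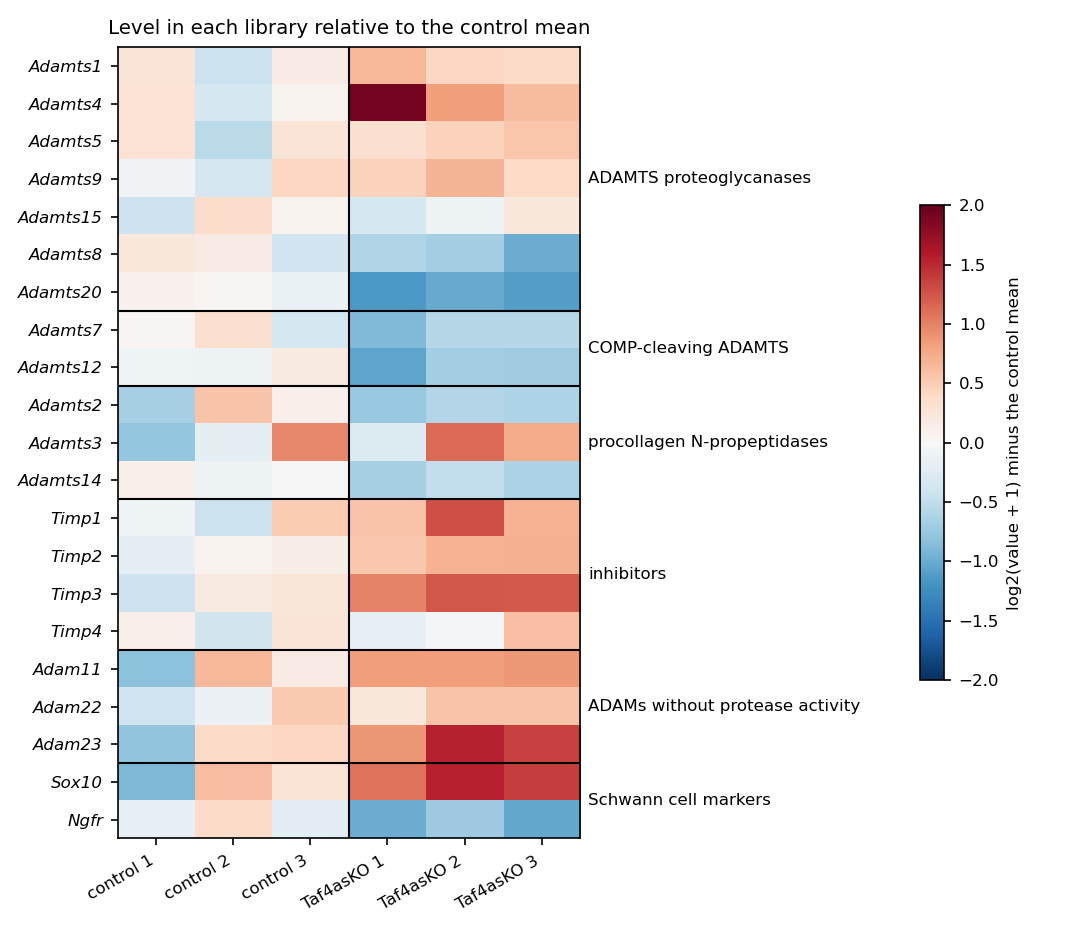
Level of 21 genes in each library as log2(value + 1) minus the control mean, with red for higher and blue for lower, grouped by known role. Adamts7, Adamts12 and Adamts14 are blue in all 3 Taf4asKO columns, Timp2, Timp3, Adam11 and Adam23 are red in all 3, and control replicate 1 is blue for Adam11, Adam23 and Sox10.

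Among the MMPs 2 of 13 passed (15.4%, near the 12.6% of all tested genes and 15.1% of protein-coding genes), both higher. Without any 1 library other than control replicate 2, only Mmp16 passed. Mmp16, a membrane-anchored MMP (MT3-MMP), stood at 31, 34 and 37 normalized counts in the controls and 72, 103 and 91 in the Taf4asKO-labelled libraries. The groups were far apart relative to their spread (log2 fold change 1.35, SE 0.23, adjusted p = 0.00456), and the call held in all 15 alternatives. Its level per kb rose from 3.92 to 10.2, which left it among the lower members of the group. Mmp19, a secreted MMP of basement membrane components, stood at 77, 111 and 63 in control and 124, 172 and 147 in the labelled libraries (0.84, SE 0.23, adjusted p = 0.0395). This call was lost without control replicate 1 (0.0861) or 3 (0.101) and without any 1 labelled library (0.0644, 0.169 and 0.132). Mmp19 shares 789 exon bases, 22.3% of its own, with Tmem198b on the opposite strand, whose row held 72 to 119 counts.

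Neither of the abundant MMPs passed. Mmp2, gelatinase A, stood at 2348, 6011 and 3301 normalized counts in the controls and 2495, 3105 and 2717 in the Taf4asKO-labelled libraries. Control replicate 2 stood apart, and the other 2 controls spanned the labelled range. The log2 fold change was -0.38 (SE 0.27, adjusted p = 0.384), and -0.01 without control replicate 2. Mmp14, the membrane MMP that activates pro-MMP2, stood at 1231, 1716 and 1380 in control and 1302, 1446 and 1302 in the labelled libraries (-0.08, 95% interval -0.37 to 0.20). Mmp15, the third MMP by level per kb, stood at 263, 476 and 375 in control and 518, 501 and 519 in the labelled libraries. The groups did not overlap, and the difference passed with the block (0.0415) or without control replicate 2 (0.0173). It did not pass in the fit without a block (0.51, SE 0.19, adjusted p = 0.106). Without control replicate 1 the log2 fold change fell to 0.28 (adjusted p = 0.254). Adding the 13 MMP genes per kb gave 1060 to 2290 in control and 1170 to 1420 in the labelled libraries, so the ranges overlapped, unlike those of the TIMPs.

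Control replicate 2 was also the highest library for Adam12 and Adamts2, and markers of other cell types are therefore given here. Their counts stand beside 12.6% of all tested genes called, or 18.1% with the block. The 8 markers of fibro-adipogenic progenitors summed to 68146 to 97632 normalized counts in the controls and 57549 to 81424 in the Taf4asKO-labelled libraries. Col3a1 was a large part of the control sums (46225 to 47700) and stood at 13082 to 17573 in the labelled libraries. The median log2 fold change of the list was 0.77, with 6 values above 0 and 2 below. Of the 8 markers, 3 passed, with Col3a1 and Cd34 lower and Gsn higher. With the block 7 passed, 2 lower and 5 higher, which added Col1a1, Dcn, Lum and Pdgfra as higher. Pdgfra stood at 49 to 152 in control and 160 to 247 in the labelled libraries. The 4 tenocyte markers summed to 864 to 5050 and 2570 to 5994, and 0 passed by limma (0 also at an unadjusted p under 0.05, 2 with the block). The 4 mural cell markers summed to 9064 to 14020 and 13923 to 16199, with Myh11 and Rgs5 higher (and Cspg4 with the block). Acta2, the remaining mural marker, had a value below 0 and did not pass (-0.31). The 5 endothelial markers summed to 878 to 1263 and 1389 to 1680, with 0 past the threshold (4 at an unadjusted p under 0.05, 2 with the block). The 4 myofibre markers summed to 1036 to 3261 and 1869 to 2410, with 0 past the threshold by limma, at an unadjusted p under 0.05 or with the block. Among the controls, the fibro-adipogenic (97632) and tenocyte (5050) sums were highest in replicate 3. The mural (14020), endothelial (1263) and myofibre (3261) sums were highest in replicate 2. The part of these cells in the values of the metalloprotease genes was not tested.

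Regulators of metalloprotease activity were read from a list of 18 genes, 17 of them tested. Of these 5 passed (29.4%, beside 12.6% of all tested genes), 1 lower and 4 higher, and 8 did with the block (beside 18.1%), 2 lower and 6 higher, with a median log2 fold change of 0.35 beside 0.00403 over all tested genes. Spock1 (testican-1), a proteoglycan that has been linked to control of membrane MMPs, stood at 325, 941 and 537 normalized counts in the controls and at 40, 47 and 28 in the Taf4asKO-labelled libraries. That is a log2 fold change of -3.83 (SE 0.34, adjusted p = 0.000172) with no overlap. Serpine2, a serpin that inhibits plasminogen activators and thrombin, stood at 191, 273 and 322 in control and 884, 844 and 1163 in the labelled libraries (1.89, SE 0.19, adjusted p = 0.000443). Tfpi2, an inhibitor of plasmin, also rose from a low level (2.02, SE 0.40, adjusted p = 0.00986).

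Both plasminogen activators, which act upstream of pro-MMP activation, were higher as well. Plat stood at 311, 621 and 497 normalized counts in the controls and 1054, 911 and 889 in the Taf4asKO-labelled libraries (log2 fold change 1.05, adjusted p = 0.0113, and 0.0538 without labelled replicate 1). Plau changed by 0.64 (adjusted p = 0.02, and 0.104 and 0.0805 without labelled replicates 2 and 3). Higher genes of the list thus included activators of the plasmin system and inhibitors of it. Reck, a membrane inhibitor of MMPs, did not pass (0.37, SE 0.17, adjusted p = 0.18). Furin, which removes the propeptide of many ADAMs and membrane MMPs, had group means that both rounded to 1494 (95% interval -0.20 to 0.20).

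Of 8 tested partners of ADAM10 and ADAM17 (tetraspanins, inactive rhomboids and Frmd8), 0 passed by limma (0 with the block), 2 had an unadjusted p under 0.05 and the median was -0.04. Those were Tspan5 (-0.32, adjusted p = 0.16) and Tspan15 (-0.34, adjusted p = 0.112), tetraspanins that escort ADAM10. Of 24 tested proteins known to be shed by ADAM10 or ADAM17, 7 passed (29.2%, beside 12.6% of all tested genes), 2 lower and 5 higher, with a median of 0.33. With the block 8 passed (beside 18.1%), which added Cdh5 as higher. Dll1, a Notch ligand, stood at 1072, 1025 and 702 normalized counts in the controls and 565, 380 and 278 in the Taf4asKO-labelled libraries (-1.23, adjusted p = 0.00993, and 0.0501 without labelled replicate 2). Jag1, another Notch ligand, was higher (0.69, adjusted p = 0.0229), a call lost without any 1 labelled library (0.0667 to 0.0954) and with total-count scaling (0.0536). Ptk7, a receptor of Wnt signalling, was lower (-0.83, adjusted p = 0.00453). Sdc4 (0.88) and Vcam1 (0.74), both surface proteins of MuSCs, were higher. So were L1cam (1.28), a neural adhesion molecule, and Areg (1.81), a ligand of the EGF receptor at 2 to 18 counts. The calls for L1cam and Areg were lost without any 1 labelled library (adjusted p 0.0547 to 0.139), that for L1cam also with robust variance shrinkage (0.081) and that for Areg also without control replicate 1 (0.0594). L1cam was lowest in control replicate 1, at 124 counts, as Sox10 was.

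Matrix proteins cleaved by ADAMTS enzymes were tested as a list of 19. In the fit without a block 3 passed (15.8%, near the 12.6% of all tested genes), 1 lower and 2 higher. With the block 11 did, 2 lower and 9 higher, beside 18.1% of all tested genes in that fit. The median log2 fold change was 0.40. Col3a1, the chain of type III collagen, stood at 46225, 47112 and 47700 normalized counts in the controls and 13082, 17573 and 16995 in the Taf4asKO-labelled libraries (log2 fold change -1.58, SE 0.13, adjusted p = 0.000126). No labelled library came near the controls. Vcan, the proteoglycan versican, stood at 189, 282 and 227 in control and 397, 577 and 543 in the labelled libraries (1.12, SE 0.18, adjusted p = 0.00417). Nid1, a basement membrane protein, rose to a like extent (1.16, SE 0.19, adjusted p = 0.0041). Comp, the substrate of both COMP-cleaving genes, stood at 91, 205 and 557 in control and at 247, 643 and 623 in the labelled libraries, with overlap (1.08, SE 0.56, adjusted p = 0.238, and 0.00777 with the block).

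Of 10 tested metalloendopeptidases outside these subfamilies 2 passed, beside 12.6% of all tested genes, and the median was 0.32. Tll1, a tolloid-like procollagen C-proteinase, stood at 1, 2 and 12 normalized counts in the controls and 34, 44 and 58 in the Taf4asKO-labelled libraries (log2 fold change 3.41, SE 0.63, adjusted p = 0.0073). Mmel1, related to neprilysin, was lower at 22, 34 and 25 against 6, 15 and 10 (-1.36, SE 0.39, adjusted p = 0.0469), a call lost when any 1 of the 6 libraries was left out (adjusted p 0.0584 to 0.139). Bmp1, the abundant procollagen C-proteinase, did not pass (0.07, 95% interval -0.14 to 0.28).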

How the data were processed

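RNA-seq of 3 control and 3 Taf4asKO MuSC libraries was analysed from 1 deposited table. Per the study's methods and the submitters' processing notes, the authors trimmed reads (Trimmomatic 0.39), aligned them to mm10 (STAR 2.6.0c), removed multi-mapping reads, counted exonic reads (featureCounts 1.6.0) without those shared by several genes and normalized with DESeq2 1.14.1. The deposited values are a score, the normalized count rounded to a whole number by the authors, and 0 value columns lacked a sample. Because they are not raw counts, no count model was used and depth in reads was not analysed here. The study's methods speak of biological replicates in general but do not say which animals each library came from, and p-values measure the spread between these samples. Genes with a mean of at least 5 (18562) entered limma 3.58.1 under R 4.3.3 (lmFit, eBayes with trend, two-sided) on log2(value + 1), which understates changes of low genes, with Benjamini-Hochberg adjustment over all tested genes and intervals at 95%. The threshold was an adjusted p under 0.05 and a fold of at least 1.3. The test was tried on simulated data first. Members, lists and tests were chosen with earlier results of these data known, and role groups after values were seen. Genes named by rule were those past the threshold, the 3 of highest level per kb in each subfamily, all TIMPs, Adam10, Adam17, Mmp2, Mmp9, Mmp14, 2 on either side of the mean of 5 and, per list, at most 6 past the threshold. Others were named after their values were seen, to complete a role group or a list.

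Exon lengths and overlaps came from GENCODE M21, where 33 of 54 members had the table's start, end and strand. Promoters came from RefSeq. Replicate numbers come from the sample titles. For libraries that share a number, deviations from the group mean were correlated over genes (0.235, 0.126 and 0.15), each over 0.1, so a fit with the number as a block is given beside results it changes. Other alternatives were a pseudocount of 0.1, no filter, robust variance shrinkage, total-count and upper-quartile scaling, a trimmed mean (30% of M values, 5% of A values), each library left out, a fold limit of 2 and an adjusted p under 0.01. Some Schwann cell markers and an overlapping gene are not reported here. Figures were drawn with matplotlib 3.10.9.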

Additional observations from a re-analysis of the deposited data

How the results depend on the processing

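The precision of these values is limited by 3 libraries per group and, for the 23 members with a mean under 100, by low counts. Of the 13 members past the threshold, 4 kept the call in all 15 alternatives (Adamts20, Adamtsl1, Mmp16 and Timp3), 2 lost it only at a fold limit of 2 (Adamts12 and Timp2) and 7 lost it when some 1 library was left out. A fold limit of 2 left 6 members (2 lower and 4 higher; ADAM 1, ADAMTS 2, MMP 1, TIMP 1) and 850 of 2347 genes overall. An adjusted p under 0.01 left 7 (3 lower and 4 higher; ADAM 1, ADAMTS 2, MMP 1) and 876 genes. With the replicate block, 21 members passed, 13 of them higher (ADAM 5, ADAMTSL 2), among 3355 genes. The block added 8 calls, lost 0 and changed no other call. Robust variance shrinkage left 1 ADAM gene. The cause of these shifts beyond the stricter limits was not tested.

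Leaving out 1 library gave 7 to 14 members, 3 to 6 lower and 4 to 8 higher, with ADAM 0 to 3, ADAMTS 2 to 6, ADAMTSL 1 to 2, MMP 1 to 3 and TIMP 2 throughout, and 960 to 3121 genes overall. The lowest member counts, 7 each, came without labelled replicate 2 or 3. With 1 library left out, signs turned for 12 of the 54 members, 0 of them past the threshold. Named by rule were Adam1b (-0.0278 without control replicate 1, up to 1.2 without another library), Adam10 (0.0415 without control replicate 2, down to -0.174), Mmp14 (0.0489 without control replicate 2, down to -0.191) and Timp4 (-0.038 without control replicate 2 and -0.0885 without labelled replicate 3, up to 0.294). The other 8 were Adam8, Adam15, Adam19, Adam30, Adamts15 (-0.29 to 0.0978), Adamtsl5, Mmp21 and Mmp23. Of 645 values for 43 named genes, 72 lost the call, 6 gained it, 5 turned and the others kept direction and side of the threshold. Scaling alternatives moved the median of all genes by at most 0.0335 from 0, downward with the upper quartile.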
